A study of Homo sapiens with 8 samples.

Results

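The genes described here encode 10 enzymes that supply, place and oxidise the polyunsaturated fatty acids of membrane phospholipids, picked by symbol from the 57169 rows of the deposited count table. They are the acyl-CoA synthetases ACSL3 and ACSL4, the acyltransferase LPCAT3, the lipoxygenases ALOX5, ALOX12, ALOX15, ALOX15B and ALOXE3, and the reductases POR and CYB5R1. Each member was found in the table, and 10 of 10 passed the filter on low counts that left 21378 genes for testing. Lipid peroxidation by these enzymes needs a chain of steps. ACSL4 joins arachidonic and adrenic acid to coenzyme A, and LPCAT3 inserts such acyl groups into phospholipids, whereas ACSL3 also activates monounsaturated fatty acids, which resist oxidation. Lipoxygenases add oxygen to polyunsaturated acyl chains, except that ALOXE3 converts a hydroperoxide made by another lipoxygenase, ALOX12B. POR and CYB5R1 pass electrons from NADPH or NADH to acceptors in the endoplasmic reticulum and can give rise to hydrogen peroxide. This is why both reductases are studied in ferroptosis, the iron-dependent form of cell death by lipid peroxides.

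RNA came from HCT116 and SW620, established human colorectal carcinoma lines, after 24 hours with 5-fluorouracil (5-FU) or with AFZC, each at its IC50 dose for that line. The series title describes nanodrugs in which a metal-organic framework carrying 5-FU is modified with an aptamer. The 4 groups were HCT116 with 5-FU, HCT116 with AFZC, SW620 with 5-FU and SW620 with AFZC, with 2 libraries each, numbered replicate 1 and 2. No untreated cells were part of this comparison, and each AFZC value stands against 5-FU, an agent that per the title AFZC also carries. Whether the replicates of a group were separate cultures is not stated, and a p-value then covers the spread of those replicates alone, which can be technical.

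Total counts ran from 31991561 to 40590291 per library. TMM scaling factors were 0.816 and 0.867 in the SW620 5-FU libraries and 1.02 to 1.11 in the other 6. The 9 colorectal epithelium markers summed to 3501 to 7942 CPM (counts scaled to a library total of 1000000) in HCT116, to 15209 and 16552 CPM in SW620 with 5-FU and to 5511 and 5039 CPM in SW620 with AFZC. Most of each sum was KRT8, KRT18 and KRT19, with means of 7957, 3286 and 2692 CPM in SW620 with 5-FU. In SW620 the mean of KRT20 rose from 2.36 CPM with 5-FU to 20.9 CPM with AFZC, and those of all other epithelium markers fell. VIL1 and CDH17 held 4 and 72 counts in HCT116 with 5-FU. Markers of immune cells (5 genes) summed to 0.111 to 0.337 CPM in HCT116, to 5.82 and 8.58 CPM in SW620 with 5-FU and to 41.5 and 16.4 CPM in SW620 with AFZC, nearly all of it LYZ in SW620 (40.4 and 15.7 CPM with AFZC). PTPRC and CD3E, which define leukocytes and T cells, were at 0 in both SW620 AFZC libraries. The other listed immune markers, CD79A and CD68, held 53 and 12 counts in that group, against 6 and 2 in HCT116 with AFZC. Stroma markers (5 genes) summed to 44.1 to 81.4 CPM and endothelium markers (3 genes) to 3.14 to 18.3 CPM. In HCT116 the epithelium sums were 4329 and 3501 CPM with 5-FU and 7942 and 4885 CPM with AFZC. Stroma sums of the 2 treatments overlapped in SW620 (52.8 and 57.3 CPM with 5-FU, 81.4 and 49.2 CPM with AFZC). Every other sum did not overlap between the treatments within its line. Between the lines the sums did not overlap under 5-FU, and under AFZC those of epithelium and stroma markers overlapped. The part of these sums in the results below was not tested. In bulk RNA, fewer cells expressing a gene and less RNA of it per cell cannot be told apart.

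Levels differed widely between members when given per exon length as RPKM (CPM divided by exon length in kilobases). ACSL4 spanned 15.4 to 45.9 RPKM over the 8 libraries, ACSL3 15.4 to 25.8 and POR 15.7 to 21.1. LPCAT3 at 3.38 to 7.55 RPKM and CYB5R1 at 4.24 to 5.59 RPKM formed a middle tier. Of the 4725 exon bases behind the RPKM of LPCAT3, 3100 overlap EMG1 on the opposite strand, so its level is uncertain. Each lipoxygenase stayed below 5 RPKM in every library, from 0.0101 RPKM for ALOX15 in a SW620 5-FU library to 4.16 RPKM for ALOXE3 in an HCT116 AFZC library. The steady members were POR and CYB5R1, whose highest library was 1.34 and 1.32 times the lowest in CPM, and the most variable was ALOX15, at 60.4 times.

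**Figure D1:**
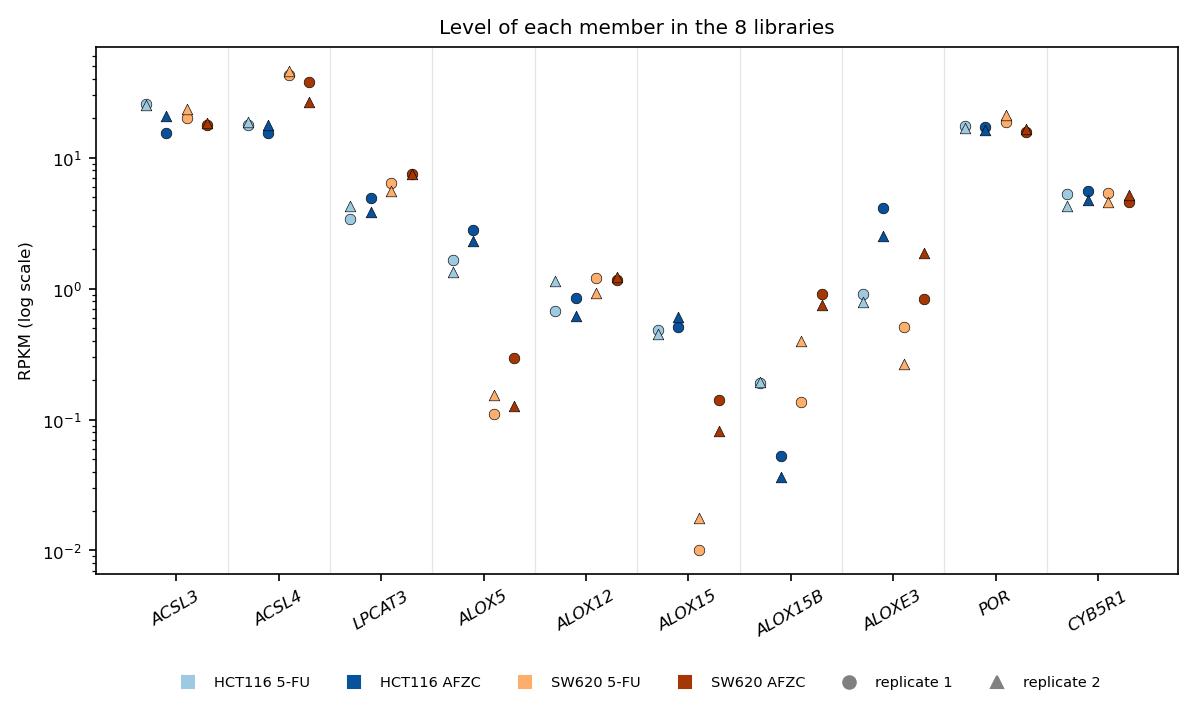
RPKM of each of the 10 members on a log axis, with 1 point per library (circle for replicate 1, triangle for replicate 2) and colours for the 4 groups. ACSL3, ACSL4 and POR lie between 15.4 and 45.9 RPKM, and the 5 lipoxygenases lie below 5 RPKM.

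AFZC against 5-FU called 1 of 10 members in HCT116, ALOXE3, as higher, and 0 as lower. Of the 21378 genes tested there, 9.61% were called, 5.87% higher and 3.74% lower, and the median log2 fold change was 0.04 for the members and 0.00 for all genes. In SW620, 2 of 10 were called higher, ALOXE3 and ALOX15, and 0 lower, where 18.6% of all genes were called (11.6% higher and 6.95% lower), with medians of 0.25 and 0.03. For the difference of the AFZC effects, SW620 minus HCT116, 1 of 10 was called, ALOX15B, as higher, against 9.78% of all genes (5.65% higher and 4.14% lower). SW620 against HCT116 called 2 members higher and 3 lower under 5-FU, where 54.8% of all genes were called (26.5% higher and 28.2% lower). Under AFZC it called 3 higher and 3 lower, where 49.3% of all genes were called (25.1% higher and 24.2% lower). The members' shares lie near these backgrounds. Libraries of the 2 treatments did not overlap for 5 of 10 members in HCT116 and 7 of 10 in SW620, against 55.4% and 59.8% of all genes, and those of the 2 lines did not overlap for 7 of 10 members under either agent, against 80% and 74.4%. The comparisons of the lines use the same 8 libraries as those of the treatments.

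**Figure D2:**
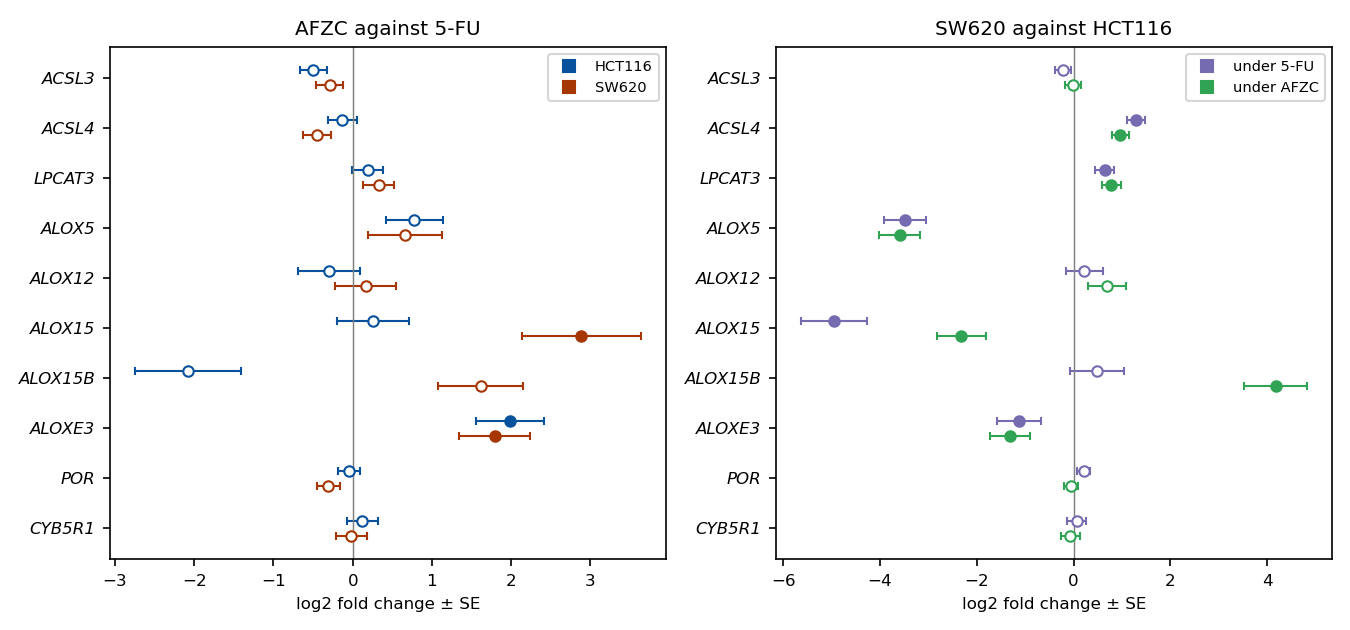
Log2 fold changes with SE bars for the 10 members, AFZC over 5-FU in each line on the left and SW620 over HCT116 under each agent on the right. Filled points passed an adjusted p of 0.05 and open points did not, with ALOXE3 filled in both lines at 1.99 and 1.79 and ACSL4 filled between the lines at 1.29 and 0.97.

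The members at the synthetase step were ACSL4, on chromosome X (109624244 to 109733403, GRCh38, minus strand), and ACSL3, on chromosome 2 (222860934 to 222944639, plus strand). Their upstream sequences are printed because both genes were expressed in all 8 libraries, along with that of LPCAT3 at the next step. The sequences, from RefSeq on GRCh38.p14, are the stretches of the 250 bases before the RefSeq start that lie outside exons the authors counted, 5′ to 3′, with GC boxes (GGGCGG) and CCAAT boxes in capitals on either strand.
ACSL4 upstream, chrX:109733404-109733507, minus strand: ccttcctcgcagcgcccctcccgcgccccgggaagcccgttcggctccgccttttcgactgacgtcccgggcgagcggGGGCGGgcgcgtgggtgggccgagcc
ACSL3 upstream, chr2:222860786-222860933, plus strand: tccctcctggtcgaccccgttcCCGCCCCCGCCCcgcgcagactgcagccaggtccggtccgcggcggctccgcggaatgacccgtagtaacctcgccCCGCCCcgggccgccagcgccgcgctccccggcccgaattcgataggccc
LPCAT3 upstream, chr12:7018511-7018726, minus strand: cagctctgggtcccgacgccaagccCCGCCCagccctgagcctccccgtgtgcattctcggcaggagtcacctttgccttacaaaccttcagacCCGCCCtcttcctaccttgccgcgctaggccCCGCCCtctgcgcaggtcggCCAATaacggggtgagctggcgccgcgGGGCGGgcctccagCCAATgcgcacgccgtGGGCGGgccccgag
The full windows held 3 GC boxes for ACSL4, 3 for ACSL3 and 5 for LPCAT3, some of which lie in the exon bases not printed. LPCAT3 had 3 CCAAT boxes, ACSL3 had 1 and ACSL4 had 0. Of 35114 RefSeq windows of the same length, 42.6% held a GC box and 32% a CCAAT box. RefSeq windows were matched for 5 of the 10 members.

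ACSL4, the enzyme that channels arachidonic acid towards phospholipids, was higher in SW620 than in HCT116 under either agent, and did not pass the test for AFZC in either line. HCT116 libraries with 5-FU held 113 and 119 CPM, and those with AFZC 98.5 and 114 CPM. SW620 libraries with 5-FU held 274 and 295 CPM, and those with AFZC 244 and 171 CPM. The 4 SW620 libraries all lay above the 4 HCT116 libraries, and within SW620 both AFZC libraries lay below both 5-FU libraries, the lower of them replicate 2. Under 5-FU the log2 fold change of SW620 over HCT116 was 1.29 ± 0.182 (SE, edgeR quasi-likelihood test, adjusted p = 5.88e-05) and under AFZC it was 0.97 ± 0.181 (adjusted p = 0.000703). The log2 fold change of AFZC over 5-FU was -0.13 ± 0.180 in HCT116 (adjusted p = 0.726, 95% interval -0.52 to 0.26) and -0.45 ± 0.179 in SW620 (adjusted p = 0.0978). In fits without single libraries the SW620 value spanned -0.73, without SW620 AFZC replicate 1, to -0.22, without SW620 AFZC replicate 2. A test of the difference of the AFZC effects between the lines gave -0.32 (adjusted p = 0.473), or 0.037 with library sizes only in place of TMM scaling.

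ACSL3, its relative that also activates monounsaturated fatty acids, is the other synthetase among the members. With 5-FU, HCT116 libraries held 187 and 183 CPM against 111 and 151 CPM with AFZC, with no overlap. SW620 libraries held 146 and 172 CPM with 5-FU and 127 and 133 CPM with AFZC, again with no overlap. The log2 fold change of AFZC over 5-FU was -0.50 ± 0.170 in HCT116 (adjusted p = 0.0869) and -0.29 in SW620 (adjusted p = 0.268, and 0.092 with library sizes only in place of TMM scaling), so neither passed the threshold. The HCT116 difference passed with no filter on low counts, at -0.52 (adjusted p = 0.0317). In fits without single libraries it spanned -0.76, without HCT116 AFZC replicate 2, to -0.30, without HCT116 AFZC replicate 1. Between the lines, SW620 over HCT116, ACSL3 had a log2 fold change of -0.22 under 5-FU, which did not pass the test except with library sizes only (-0.52, adjusted p = 0.0193).

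Set against the other long-chain synthetases, ACSL4 made up a different share of the family in each line. Of the RPKM summed over ACSL1, ACSL3, ACSL4, ACSL5 and ACSL6, ACSL4 accounted for 18.5% and 19.4% in HCT116 with 5-FU and 24.7% and 22.4% with AFZC. In SW620 its share was 56.6% and 56.2% with 5-FU and 43.3% and 30.03% with AFZC. ACSL5, a synthetase of intestinal and liver cells, had the largest share in all 4 HCT116 libraries, at 41.6% to 49.6%, and in SW620 went from 10.6% and 8.57% of the sum with 5-FU to 26.1% and 43.3% with AFZC. Its own level in SW620 rose from 33.8 and 29.7 CPM to 97.5 and 163 CPM, a log2 fold change of 2.04 ± 0.233 (adjusted p = 0.000134), whereas HCT116 held 200 and 200 CPM with 5-FU and 110 and 151 CPM with AFZC (-0.62 ± 0.224, adjusted p = 0.103). The RPKM of ACSL4 was 0.682 and 0.734 times that of ACSL3 in HCT116 with 5-FU and 1.0001 and 0.848 times with AFZC, and 2.11 and 1.94 times in SW620 with 5-FU and 2.16 and 1.45 times with AFZC.

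**Figure D3:**
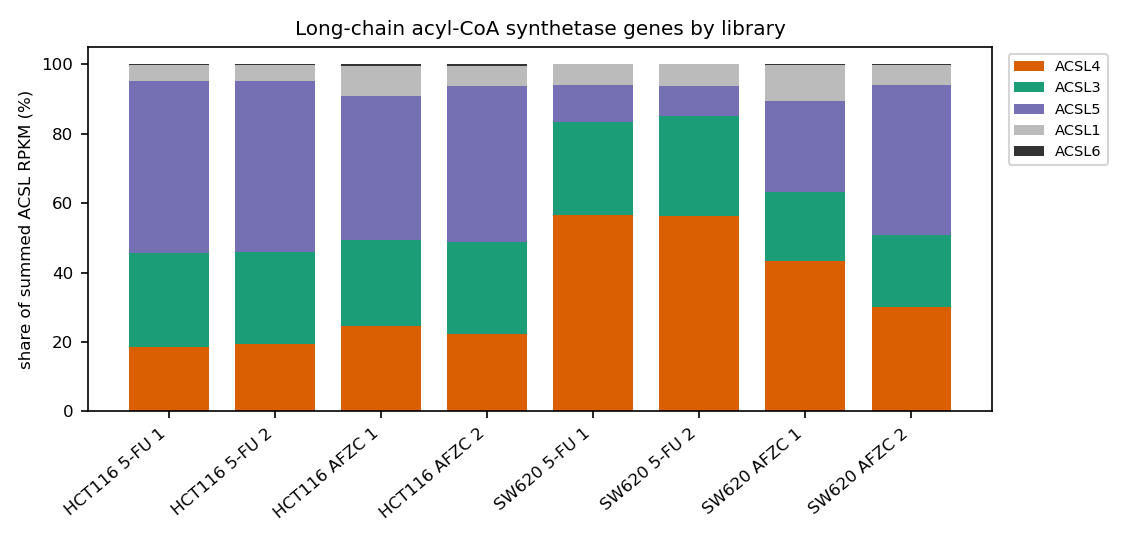
Stacked bars give the share in percent of the summed RPKM of the 5 long-chain acyl-CoA synthetase genes in each of the 8 libraries. ACSL4 takes 18.5% to 24.7% in the HCT116 libraries and 30.03% to 56.6% in the SW620 libraries, and ACSL5 takes 8.57% and 10.6% in SW620 with 5-FU.

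LPCAT3, the acyltransferase that places arachidonic acid in phospholipids, lies on chromosome 12 (6976186 to 7018510, minus strand) and was higher in SW620. HCT116 libraries held 16.0 and 20.3 CPM with 5-FU and 23.1 and 18.2 CPM with AFZC, and SW620 libraries 30.2 and 26.4 CPM with 5-FU and 35.7 and 35.4 CPM with AFZC. Each SW620 library lay above each HCT116 library, with the 2 treatments overlapping in HCT116 and not in SW620. SW620 over HCT116 had a log2 fold change of 0.64 ± 0.195 under 5-FU (adjusted p = 0.0138) and 0.78 ± 0.194 under AFZC (adjusted p = 0.00491). The 5-FU call was lost without HCT116 5-FU replicate 1 (0.48, adjusted p = 0.136), without SW620 5-FU replicate 1 (0.54, adjusted p = 0.101) and with library sizes only in place of TMM scaling (0.34, adjusted p = 0.168). AFZC over 5-FU gave 0.19 in HCT116 (adjusted p = 0.615) and 0.33 in SW620 (adjusted p = 0.266). Of the 4725 exon bases counted for LPCAT3, 3100 (65.6%) overlap EMG1 on the opposite strand, and the libraries did not keep the strand, so reads of the 2 genes cannot be told apart there. EMG1 had 2298 to 3052 counts per group.

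The lipoxygenases gave the calls among the members for AFZC. Summed RPKM of ALOX5, ALOX12, ALOX12B, ALOX15, ALOX15B and ALOXE3 was 4.44 and 4.30 in HCT116 with 5-FU and 9.13 and 6.91 with AFZC, and 2.33 and 2.22 in SW620 with 5-FU and 3.71 and 4.44 with AFZC. ALOXE3 supplied 20.3% and 18.2% of that sum in HCT116 with 5-FU and 45.5% and 36.6% with AFZC. The corresponding shares in SW620 were 21.99% and 11.9% with 5-FU and 22.3% and 41.8% with AFZC.

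ALOXE3, an epidermal lipoxygenase that converts the hydroperoxide made by ALOX12B into a hepoxilin, was the member that rose under AFZC in both lines. It sits on chromosome 17 (8095900 to 8119047, minus strand), next to ALOX12B and ALOX15B in a cluster of lipoxygenase genes with 8183 bases between it and ALOX12B and 23501 between ALOX12B and ALOX15B. In the HCT116 libraries it held 118 and 105 counts with 5-FU and 590 and 343 with AFZC, which is 3.40 and 2.95 CPM against 15.6 and 9.51 CPM. SW620 libraries held 56 and 33 counts with 5-FU and 111 and 250 with AFZC, or 1.93 and 0.996 CPM against 3.12 and 6.97 CPM. Each AFZC library lay above each 5-FU library of its line, though the 2 AFZC libraries were unlike each other, with replicate 1 the higher in HCT116 and replicate 2 the higher in SW620. The log2 fold change was 1.99 ± 0.425 in HCT116 (adjusted p = 0.0122) and 1.79 ± 0.447 in SW620 (adjusted p = 0.0151), and the difference between the lines was -0.19 (adjusted p = 0.912, and 0.150 with library sizes only). Without HCT116 5-FU replicate 1 or 2 or AFZC replicate 1 the HCT116 adjusted p was 0.128, 0.124 and 0.0911. In SW620, leaving out 5-FU replicate 2 gave 1.39 (adjusted p = 0.144) and AFZC replicate 2 gave 1.10 (adjusted p = 0.0991).

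Between the lines ALOXE3 was lower in SW620, with a log2 fold change of -1.12 ± 0.449 under 5-FU (adjusted p = 0.0486) and -1.32 ± 0.413 under AFZC (adjusted p = 0.0182). The 5-FU call was lost without HCT116 replicate 1 (-1.02, adjusted p = 0.179) or 2 (-1.24, adjusted p = 0.099) and without SW620 replicate 2 (-0.72, adjusted p = 0.297). The AFZC call was lost without HCT116 replicate 1 (-0.92, adjusted p = 0.143) or SW620 replicate 1 (-0.84, adjusted p = 0.115), and the value was -2.00 without SW620 replicate 2.

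The stretch upstream of ALOXE3 is printed since this gene rose in both lines, in the same form as above, with TATA box letters (TATAA on either strand) in capitals.
ALOXE3 upstream, chr17:8119048-8119166, minus strand: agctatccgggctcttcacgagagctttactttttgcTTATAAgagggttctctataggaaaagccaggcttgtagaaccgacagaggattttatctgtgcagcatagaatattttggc
RefSeq gives 3 starts for ALOXE3, and the stretch shown precedes the outermost of them. Its full 250-base window held 0 GC boxes and 0 CCAAT boxes, and the capitals mark a spot where TATAA reads on both strands. The window of the second start held 0 of these motifs, and that of the third held 1 GC box, 2 CCAAT boxes and 1 TATA box. Of the RefSeq windows, 18.9% held TATAA. ALOX12B, the partner of ALOXE3 in skin, held 1.47 and 1.09 CPM in HCT116 with 5-FU and 2.12 and 2.19 CPM with AFZC (log2 fold change 0.75, adjusted p = 0.292), and had -0.06 in SW620 (adjusted p = 0.964).

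ALOX15, which oxidises intact phospholipids and is bound by PEBP1, was called for AFZC in SW620, on few counts. SW620 libraries held 1 and 2 counts with 5-FU and 17 and 10 with AFZC, whereas HCT116 libraries held 57 and 55 with 5-FU and 65 and 75 with AFZC. In CPM the SW620 libraries went from 0.0344 and 0.0604 to 0.478 and 0.279, still below the 1.54 to 2.08 CPM of the 4 HCT116 libraries. Pooled counts were 7.83 times as high in SW620 with AFZC as with 5-FU (95% exact binomial interval 2.41 to 40.4), and the fitted log2 fold change was 2.88 ± 0.750 (adjusted p = 0.0185). That call was lost without SW620 5-FU replicate 1 (2.58, adjusted p = 0.102) or 2 (3.33, adjusted p = 0.0891), without SW620 AFZC replicate 1 (2.46, adjusted p = 0.101) and with only the 4 libraries of SW620 in the model (2.90, adjusted p = 0.0592). In HCT116 the log2 fold change was 0.25 (adjusted p = 0.801), and the difference between the lines, 2.63, did not pass (adjusted p = 0.0831). SW620 was lower than HCT116 under 5-FU, with a ratio of pooled counts of 0.0303 (0.00616 to 0.0909) and a log2 fold change of -4.95 ± 0.684 (adjusted p = 4.93e-05), and under AFZC, with -2.32 ± 0.508 (adjusted p = 0.00215). The pseudogene ALOX15P1 had 69 and 104 counts in the HCT116 groups and 35 and 47 in the SW620 groups. The counts of ALOX15 are uncertain by any reads shared with it.

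ALOX15B, a lipoxygenase that oxygenates arachidonic acid at the same carbon, was the member whose AFZC effect differed between the lines. HCT116 libraries held 20 and 21 counts with 5-FU and 6 and 4 with AFZC, while SW620 libraries held 12 and 40 with 5-FU and 98 and 81 with AFZC. Both HCT116 AFZC libraries lay below both 5-FU libraries, and both SW620 AFZC libraries lay above both 5-FU libraries. The log2 fold change was -2.08 ± 0.668 in HCT116 (adjusted p = 0.0694) and 1.61 ± 0.537 in SW620 (adjusted p = 0.0535), so neither passed the threshold on its own. The difference, SW620 minus HCT116, was 3.69 ± 0.856 (adjusted p = 0.018), and was lost without HCT116 5-FU replicate 1 (3.71, adjusted p = 0.0677) or 2 (3.70, adjusted p = 0.0613). With no filter on low counts both single effects passed, at -2.10 in HCT116 (adjusted p = 0.0391) and with an adjusted p of 0.0385 in SW620. In fits without single libraries the SW620 value spanned 1.05 to 2.59, the highest without SW620 5-FU replicate 2. Under AFZC, pooled counts in SW620 were 18.5 times those in HCT116 (9.83 to 39.3), a log2 fold change of 4.18 ± 0.645 (adjusted p = 0.000154), against 0.48 under 5-FU (adjusted p = 0.49).

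ALOX5, the enzyme of leukotriene synthesis, was higher in HCT116 than in SW620 under either agent. HCT116 held 6.19 and 4.97 CPM with 5-FU and 10.4 and 8.65 CPM with AFZC, and SW620 held 0.413 and 0.574 CPM with 5-FU and 1.10 and 0.474 CPM with AFZC, or 12 to 39 counts a library. The lowest HCT116 library lay above the highest SW620 library. SW620 over HCT116 gave -3.48 ± 0.436 on the log2 scale under 5-FU (adjusted p = 2.11e-05) and -3.60 ± 0.415 under AFZC (adjusted p = 1.32e-05). AFZC over 5-FU gave 0.77 ± 0.360 in HCT116, where the groups did not overlap (adjusted p = 0.205), and 0.66 in SW620, where they did (adjusted p = 0.354).

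ALOX12, the platelet-type lipoxygenase, held 1.61 to 3.18 CPM over the 8 libraries. Its log2 fold change of AFZC over 5-FU was -0.30 in HCT116 (adjusted p = 0.70) and 0.17 in SW620 (adjusted p = 0.82), and the groups overlapped in both lines. Of its exon bases, 491 (18.8%) overlap ALOX12-AS1 on the opposite strand, which had 117 to 141 counts per group. The pseudogene ALOX12P2, whose sequence resembles ALOX12, had 588 and 913 counts in the HCT116 groups and 38 and 71 in the SW620 groups, so the counts of ALOX12 are uncertain by any reads shared with it.

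**Figure D4:**
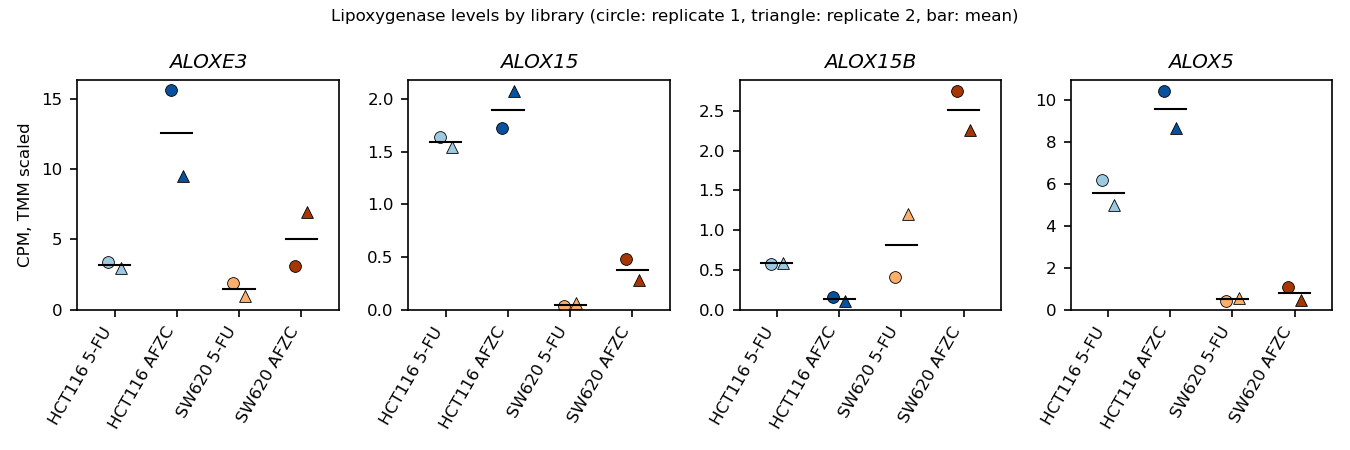
CPM with TMM scaling of ALOXE3, ALOX15, ALOX15B and ALOX5 in each library on separate axes from 0, with a bar at the mean of the 2 libraries. ALOXE3 is higher with AFZC in both lines, from 3.40 and 2.95 to 15.6 and 9.51 CPM in HCT116, and ALOX15B is higher in SW620 with AFZC and lower in HCT116 with AFZC.

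At the electron supply step, POR, the NADPH donor of microsomal cytochromes P450, and CYB5R1, an NADH-cytochrome b5 reductase, stayed within a narrow range. POR held 107 and 103 CPM in HCT116 with 5-FU and 104 and 98.8 CPM with AFZC, and 114 and 129 CPM in SW620 with 5-FU and 96.1 and 100.3 CPM with AFZC. The log2 fold change of AFZC over 5-FU was -0.05 in HCT116 (adjusted p = 0.89, 95% interval -0.36 to 0.26) and -0.31 ± 0.142 in SW620 (adjusted p = 0.155, and 0.073 with library sizes only), where both AFZC libraries lay below both 5-FU libraries in TMM-scaled CPM. CYB5R1 held 19.1 to 25.2 CPM over all libraries, with log2 fold changes of 0.12 in HCT116 (adjusted p = 0.771) and -0.02 in SW620 (adjusted p = 0.983, and 0.355 with library sizes only). Neither reductase passed the test between the lines under either agent.

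Genes that feed or remodel the fatty acid pool, 21 in all, gave 1 call higher and 2 lower in HCT116 and 3 higher and 2 lower in SW620, where 9.61% and 18.6% of all genes were called, with medians of -0.22 and -0.18 on the log2 scale. SCD, the desaturase that makes monounsaturated fatty acids, fell in both lines, with log2 fold changes of -0.92 in HCT116 (adjusted p = 0.0273) and -1.08 in SW620 (adjusted p = 0.0076). In HCT116 ELOVL5, an elongase of polyunsaturated fatty acids, had -0.51 (adjusted p = 0.04) and FADS3, a desaturase of sphingoid bases, 0.84 (adjusted p = 0.0426). ACSL6, a synthetase known from brain, rose in SW620 on 4 pooled counts with 5-FU and 139 with AFZC, 30.3 times as high (11.6 to 113), with 4.85 on the log2 scale (adjusted p = 0.00185). AFZC replicates 1 and 2 held 115 and 24 of the 139, and the log2 fold change was 3.31 without replicate 1 and 5.57 without replicate 2. LPCAT2, an acyltransferase of platelet-activating factor synthesis, differed between the lines in its AFZC effect, by 1.33 (adjusted p = 0.0211). In HCT116 the calls of SCD, ELOVL5 and FADS3 were each lost without either 5-FU replicate or AFZC replicate 1. Leaving out AFZC replicate 1 took SCD to -0.60 and FADS3 to 0.44. Of the 8 fits that each left out a single library, the HCT116 call of ELOVL5 was lost in 6 and that of FADS3 in 5. The SW620 call of SCD was lost without 5-FU replicate 2 (-0.90, adjusted p = 0.0783) and the difference for LPCAT2 without HCT116 5-FU replicate 1 (1.27, adjusted p = 0.104) among others.

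Other oxygenases and partners of the lipoxygenases, of which 14 of 15 were tested, gave 2 higher and 2 lower in either line, against 9.61% of all genes called in HCT116 and 18.6% in SW620, with medians of 0.25 in HCT116 and -0.01 in SW620. ALOX5AP, the membrane protein that presents arachidonic acid to ALOX5, rose in SW620 from 14 to 116 pooled counts (log2 fold change 2.85, adjusted p = 0.0208). LTA4H, which makes leukotriene B4, fell in SW620 by 1.30 on the log2 scale (adjusted p = 0.00019). DUOX1, an oxidase that makes hydrogen peroxide, rose in HCT116 (1.11, adjusted p = 0.0287), and its AFZC effect was lower in SW620 by 2.39 (difference -2.39, adjusted p = 0.00443). SAT1, the polyamine acetyltransferase that has been placed upstream of ALOX15, fell in HCT116 by 1.68 on the log2 scale (adjusted p = 0.0402). PTGS2, the inducible cyclooxygenase used as a ferroptosis marker, had 0 counts in every SW620 library against 168 and 443 in the HCT116 groups, at least 49.5-fold and 143-fold lower against 3 counts over the group. In HCT116 the calls of DUOX1 and SAT1 were each lost without either 5-FU replicate (adjusted p up to 0.253 and 0.208), and that of DUOX1 without AFZC replicate 1 (adjusted p = 0.150). SAT1 also lost its call without AFZC replicate 2 (-1.23, adjusted p = 0.0753), without either SW620 5-FU replicate (adjusted p up to 0.0625) and with no filter on low counts (adjusted p = 0.264), and its largest value was -2.41, without AFZC replicate 1. In SW620 the call of ALOX5AP was lost without either 5-FU replicate or AFZC replicate 1 (adjusted p up to 0.175).

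**Figure D5:**
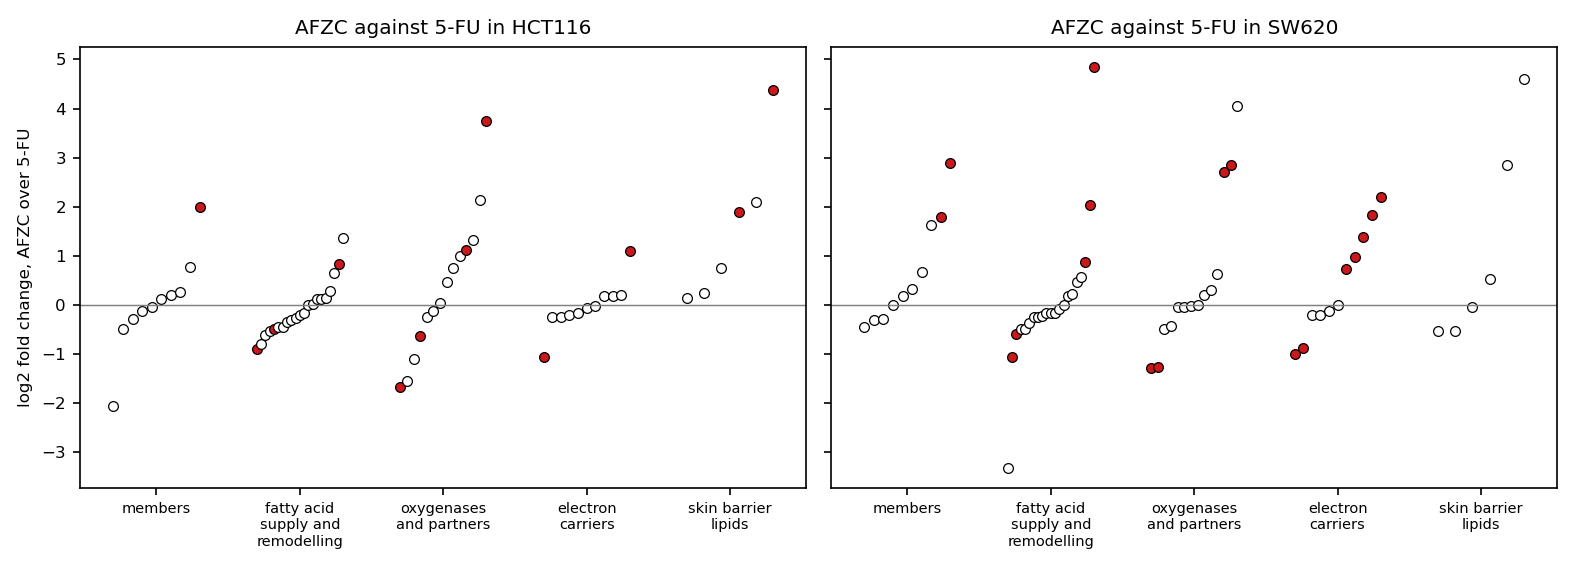
Log2 fold changes of AFZC over 5-FU for each tested gene of the members and 4 pathway lists, sorted within a list, for HCT116 (left) and SW620 (right). Red points passed an adjusted p of 0.05, 1 of 10 members in HCT116 and 2 of 10 in SW620, where 9.61% and 18.6% of all genes did.

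Microsomal electron carriers other than the members gave 1 higher and 1 lower of 11 in HCT116 and 5 higher and 2 lower of 11 in SW620, with medians of -0.08 and -0.01 on the log2 scale. Of all genes, 9.61% and 18.6% were called, and whether the count differs between the lines was not tested. HMOX1, the heme oxygenase that draws electrons from POR, rose in HCT116 by 1.10 on the log2 scale (adjusted p = 0.0142) and in SW620 by 0.98 (adjusted p = 0.0185). CYB5B, the mitochondrial outer membrane cytochrome b5, fell in HCT116 by 1.07 on the log2 scale (adjusted p = 0.0106) and rose in SW620 by 0.72 (adjusted p = 0.0387). In SW620 the largest rises were those of CYP1A1 (2.19, adjusted p = 0.00105), CYP1B1 (1.82, adjusted p = 0.00527) and CYB5R2 (1.39, adjusted p = 0.00182), all partners or relatives of the same reductase chains. The AFZC effect was higher in SW620 than in HCT116 for CYP1A1 by 2.02 (adjusted p = 0.0195), CYB5B by 1.80 (adjusted p = 0.00429) and CYB5R2 by 1.21 (adjusted p = 0.0385). ALOXE3 and ALOX12B belong to the skin barrier lipid pathway, whose list here includes ALOX12B but not ALOXE3, which is counted among the members. Of the 9 listed genes, 6 were tested. They gave 2 higher and 0 lower in HCT116 with a median of 1.32, and 0 called in SW620 with a median of 0.24. Of all genes, 9.61% and 18.6% were called. In SW620, 2 of the listed genes had an unadjusted p under 0.05 in edgeR. ABCA12, a lipid transporter of lamellar granules, rose in HCT116 by 4.39 on the log2 scale (adjusted p = 0.00343), and TGM1, a transglutaminase of the cornified envelope, by 1.89 (adjusted p = 0.01). The TGM1 effect differed between the lines, SW620 minus HCT116, by -2.43 (adjusted p = 0.0178). Without HCT116 5-FU replicate 1 the HCT116 calls of ABCA12, TGM1, HMOX1 and CYB5B were lost (adjusted p = 0.067, 0.132, 0.123 and 0.116), and so were the differences for CYP1A1 (0.0787), CYB5R2 (0.144) and TGM1 (0.0878). HCT116 5-FU replicate 2 or AFZC replicate 1 had the same effect on TGM1, HMOX1 and CYB5B in HCT116. The SW620 calls of HMOX1 and CYB5B were not examined without single libraries or under the other alternatives.

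Patterns over the 8 libraries most like those of 3 members are given as a description, by Pearson r of log2 CPM over 12948 genes with a mean log2 CPM of at least 1. ACSL4 was most like C9orf3 (r = 0.990), RSRP1 (0.989) and TRIM52 (0.989). LPCAT3 was most like DUSP13 (0.987), SLC4A7 (0.980) and SPATA2 (0.977), and ALOXE3 was most like CCDC51 (0.975), SLC29A1 (0.968) and UBE2J2 (0.966). The 8 points share cell line, treatment and scaling.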

How the data were processed

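The authors deposited 1 table of raw counts per gene symbol for the 8 libraries, per the file header with each gene's exons and length, on GRCh38, per the submitters' processing notes, which also name HISAT2 and STAR as aligners, featureCounts, the trimmers Trimmomatic and cutadapt, FastQC, edgeR and DESeq2. Which aligner was used for the counts, and how multiply aligned reads and mates were handled, is not given in the sources used here. Per the labels, libraries were poly(A)-selected and did not keep the strand. The number of genes at 2 counts was 1.68 to 1.84 times the number at 1 count in each library, which counting both mates would leave. Counting intervals and floors treat counts as independent, cover counting error only and may be too narrow.

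Counts were filtered with filterByExpr (minimum count 10), scaled with TMM factors and fitted with edgeR 4.0.16 (quasi-likelihood, robust, R 4.3.3) as 4 group means, with 4 residual degrees of freedom. P-values were two-sided and adjusted by the Benjamini-Hochberg method over all 21378 genes, with a threshold of 0.05. The SE is the size of the log2 fold change over the square root of F. CPM and RPKM were computed from the counts with TMM scaling and the deposited lengths. Alternatives were DESeq2 1.42.0, its size factors, library sizes only, no filter, only the libraries of a comparison, a replicate block, and leaving out each library. The steps were tested on simulated data. The replicates of each group were unlike beyond sampling noise, by chi-square divided by its degrees of freedom. That ratio was 23.5 in HCT116 and 20.9 in SW620 with 5-FU, and 51.5 and 47.8 with AFZC. The fit gave a gene the same variability in all 4 groups.

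All members were named, with the 3 called genes of largest change per pathway list and comparison and the 3 genes most like ACSL4, LPCAT3 and ALOXE3 in pattern. Genes named for the comparisons of the lines only are not all printed, and 1 named gene is not reported here, though counts include it. The members and lists were chosen with earlier results of these data known. ALOX12B, EMG1, LYZ, PTPRC, CD3E, ACSL5 in HCT116, HMOX1 and CYB5B in SW620 and the antisense and pseudogene rows were named outside the rule.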

Additional observations from a re-analysis of the deposited data

Results flagged for a closer look

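The AFZC effect differed between the 2 lines, by the test of the difference in the model of all 8 libraries, for ALOX15B and for 8 pathway genes. ALOX15B held 20 and 21 counts with 5-FU and 6 and 4 with AFZC in HCT116, against 12 and 40 and 98 and 81 in SW620, and its effect was higher in SW620 by 3.69 on the log2 scale (adjusted p = 0.018). The effect was also higher in SW620 for ACSL5 by 2.66 (adjusted p = 0.000524), CYP1A1 by 2.02, CYB5B by 1.80, LPCAT2 by 1.33 and CYB5R2 by 1.21. It was lower in SW620 for TGM1 (difference -2.43), DUOX1 (difference -2.39) and FADS3 (difference -1.34). The differences for CYP1A1, LPCAT2 and TGM1 were lost without HCT116 5-FU replicate 1 or 2, HCT116 AFZC replicate 1 or SW620 5-FU replicate 1 (adjusted p up to 0.0787, 0.104 and 0.0878). That for ALOX15B was lost without either HCT116 5-FU replicate. Of the 8 fits that each left out a single library, that for FADS3 was lost in 5 and that for CYB5R2 in 7. Groups of 2 libraries are too small to look for single outlying libraries.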

How the results depend on the processing

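The labels do not say whether same-numbered replicates are linked. Deviations of same-numbered libraries from their group means correlated at -0.102 to 0.0952, which cannot exclude a link. The fit with a replicate block is given here only. With that block, 1, 2 and 1 members were called in HCT116, SW620 and for the difference, and 4 and 6 between the lines under 5-FU and AFZC, where ALOXE3 under 5-FU had -1.14 (adjusted p = 0.0571), ACSL3 under AFZC had 0.00012, and the difference for CYB5R2 had an adjusted p of 0.054, and in HCT116 ELOVL5 and FADS3 had 0.056 and 0.0571. Leaving out a library left a single library in its group, and the number of genes called then changed among all genes as well as among the members. Members called were 3 in HCT116 with no filter, and in SW620 4 with library sizes only and 1 with only its 4 libraries, and 2 for the difference with library sizes only, where LPCAT3 (0.70) and ALOX15B (2.01) joined in SW620 and ALOX15 (2.97) for the difference. Other pathway genes called ranged from 0 to 15 in HCT116 without single libraries, 9 to 17 in SW620, 3 to 9 for the difference, 29 to 33 and 30 to 34 between the lines. DESeq2 and its size factors kept direction and call of each member. Values that changed sign, none of them called in the main analysis, were as follows. With library sizes only, which put the median of all genes at 0.40 in SW620, 0.39 for the difference and -0.34 between the lines under 5-FU, ACSL3, POR and CYB5R1 were 0.092, 0.073 and 0.355 in SW620. The differences of ACSL4, ALOX5, ALOXE3, POR and CYB5R1 were 0.037, 0.249, 0.150, 0.101 and 0.211. Between the lines ALOX12, POR and CYB5R1 were -0.073, -0.093 and -0.226 under 5-FU, and ACSL3 and POR 0.040 and 0.0085 under AFZC. With only its 4 libraries, CYB5R1 in SW620 was 0.0030. Without single libraries, in HCT116 LPCAT3 spanned -0.0042 to 0.352, ALOX12 -0.634 to 0.105 and CYB5R1 -0.047 to 0.285. In SW620 ALOX5 spanned -0.058 to 1.14, ALOX12 -0.014 to 0.366 and CYB5R1 -0.137 to 0.111. For the difference LPCAT3 spanned -0.022 to 0.335, ALOX5 -0.814 to 0.384, ALOXE3 -0.862 to 0.359 and CYB5R1 -0.306 to 0.033. Between the lines ALOX12 spanned -0.10 to 0.635, ALOX15B -0.490 to 1.04 and CYB5R1 -0.10 to 0.235 under 5-FU, and ACSL3 -0.222 to 0.237 and CYB5R1 -0.174 to 0.048 under AFZC. The cause of these changes was not tested. Depth limits ALOX15 and ALOX15B most, with 282 counts each over the 8 libraries.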
